A study of Mus musculus with 6 samples.

Results

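The genes for 10 receptor tyrosine kinases that bind growth factors or collagen were followed in mouse cells treated with an inhibitor of FSCN1, the actin-bundling protein fascin. They are Egfr, Met, Fgfr1, Fgfr2, Fgfr3, Pdgfra, Pdgfrb, Axl, Ddr1 and Ddr2, chosen by gene symbol, and all 10 were found among the 16880 genes of the deposited table. The libraries came from ATDC5, a mouse chondrogenic cell line according to the labels, while the paper calls the cells chondrocytes. Its culture methods describe primary articular chondrocytes from 3-day-old mice and do not name ATDC5, so the source of the cells is uncertain. Every library received IL-1β at 10 ng/mL, an inflammatory cytokine, and the methods give 24 h of treatment. Of the 6 libraries, 3 had IL-1β alone and 3 had IL-1β plus NP-G2-044 at 10 μmol/L, which the titles name NP-G2-044 and the treatment label NP-G2-047. A DMSO group was not analysed here, so every difference below is that of the inhibitor added to IL-1β over the cytokine by itself. By the labels the cells are a single line. The methods call the 3 libraries of a group biological replicates without saying what was separate between them. The p-values therefore measure the spread between these libraries, and how far they apply beyond them is not known. That spread was small. Within a group, squared differences between libraries averaged 1.538 to 2.392 times those of read counting alone.

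Receptor tyrosine kinases sit in the plasma membrane, pair up when they bind their ligand and phosphorylate each other on tyrosines, to which adaptors dock that feed the ERK and PI3K pathways. The discoidin domain receptors Ddr1 and Ddr2 differ from the rest in that their ligand is triple-helical collagen, an insoluble part of the matrix. In cartilage, FGF receptors govern growth plate chondrocytes, Egfr signals near the articular surface, and Ddr2 is known as a receptor for the exposed collagen of damaged matrix.

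Total reads per library ranged over 16615831 to 16878162 for the cytokine alone, and over 17529836 to 17735850 where the inhibitor was added. Of 13 chondrocyte markers 8 were listed and only Sox9 and Col11a2 averaged at least 1 TPM (a transcript level corrected for gene length and scaled to a common total), with Matn1, Matn3, Col11a1 and Col10a1 below 0.05 TPM, so the chondrocyte label rests on few of its markers. The summed chondrocyte list ran from 11.5 to 12.24 TPM with IL-1β alone and from 14.86 to 15.05 TPM with the inhibitor, and of its 3 tested genes Sox9 rose while Col11a2 and Col2a1 fell. Fibroblast markers were abundant, led by Vim at a mean of 1767 TPM, and the summed list ran from 3773 to 3888 TPM with IL-1β alone and from 1813 to 1878 TPM with the inhibitor. Of its 10 tested genes 9 fell, against 39.8% of all tested genes, and 1, Pdgfra, rose, while Thy1, Lum and Fap were below 0.05 TPM. The leukocyte list ran from 10.85 to 14.16 TPM and from 124.0 to 134.8 TPM, nearly all of it Cd68, with Ptprc and Itgam below 0.05 TPM. Osteoblast markers, led by Runx2, summed to 23.44 to 25.85 TPM and 12.39 to 13.57 TPM, and epithelial and endothelial lists held no gene averaging 1 TPM. The part of these shifts in the receptor results was not tested. In bulk RNA, fewer cells of a type and less RNA per cell cannot be told apart.

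The windows of 250 bases before the start site are shown for Pdgfra, Ddr2 and Ddr1, the receptors whose RNA changed by the most in each direction, because Ddr1 and Ddr2 share a ligand but moved in opposite directions. They were read from RefSeq on GRCm38.p6, where windows of 8 of the 10 receptors were used, and capitals mark motif matches on either strand. Fgfr1 had no window there, and Pdgfrb was left out of the search. Motifs searched were the GC box GGGCGG, AP-1 TGANTCA, TEAD GGAATG, the CArG box and the TATA box TATAAA, found in 32.7%, 6.75%, 12.6%, 1.47% and 12.4% of 32851 promoter windows. Pdgfra is at chr5:75152001-75152250 on the plus strand and holds no match. Ddr2 is at chr1:170088945-170089194 on the minus strand, inside the gene as GENCODE annotates it, and its capitals mark a TATA box on the opposite strand. Ddr1 is the last of 4 listed starts, at chr17:35700591-35700840 on the minus strand, also inside the annotated gene and chosen after the counts were seen, and its capitals mark GC boxes.
Pdgfra: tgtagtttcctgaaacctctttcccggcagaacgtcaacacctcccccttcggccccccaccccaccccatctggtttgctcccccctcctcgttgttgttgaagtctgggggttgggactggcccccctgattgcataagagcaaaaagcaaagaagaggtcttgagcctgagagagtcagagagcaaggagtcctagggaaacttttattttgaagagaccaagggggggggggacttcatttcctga
Ddr2: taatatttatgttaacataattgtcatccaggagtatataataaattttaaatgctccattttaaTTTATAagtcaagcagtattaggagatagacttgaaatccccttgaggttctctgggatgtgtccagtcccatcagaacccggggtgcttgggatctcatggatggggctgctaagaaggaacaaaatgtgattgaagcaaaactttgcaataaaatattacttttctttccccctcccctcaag
Ddr1: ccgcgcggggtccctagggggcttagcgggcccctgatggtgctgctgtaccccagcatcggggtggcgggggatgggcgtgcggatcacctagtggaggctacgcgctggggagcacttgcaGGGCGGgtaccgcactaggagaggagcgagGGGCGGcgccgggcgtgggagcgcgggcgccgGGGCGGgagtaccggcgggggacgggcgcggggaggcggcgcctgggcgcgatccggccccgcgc
The windows differ in base composition. Ddr2 had 1 CpG and 37.6% GC, and 92.1% of all windows have at least as many CpG. The Ddr1 window shown had 34 CpG and 78.0% GC with 3 GC boxes, a CpG number that 3.53% of all windows reach, whereas its other 3 starts had 7, 5 and 9 CpG. The Pdgfra window had 4 CpG and 54.4% GC, against medians of 6 CpG and 52.4% GC. These matches are descriptions of letters, and no binding was measured.

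Across the 10 receptors the inhibitor moved RNA levels in both directions. The quasi-likelihood test in edgeR was fitted over all genes, a gene passed it when its adjusted p was under 0.05, and it was called when its log2 fold change, positive for higher with NP-G2-044, also exceeded 1 in size. Of 9 receptors with enough reads, 4 rose (Met, Fgfr1, Pdgfra and Ddr2), 4 fell (Fgfr2, Pdgfrb, Axl and Ddr1) and Fgfr3 did not pass, against 40.2% of all 11983 tested genes rising and 39.8% falling. Called higher were 2, Pdgfra and Ddr2, and none was called lower, against 6.48% and 10.1% of all genes. The median log2 fold change of the 9 was -0.06, against 0.00185 over all tested genes. The TPM ranges of the groups did not overlap for 8 of the 9, as for 79.4% of all genes.

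On mm10, all are protein-coding genes. Ddr1 lies at chr17:35681567-35704621 and Ddr2 at chr1:169972307-170110762, both on the minus strand. Pdgfra lies at chr5:75152292-75198215, Fgfr1 at chr8:25513654-25575718, Fgfr3 at chr5:33721674-33737068, Met at chr6:17463800-17573980 and Egfr at chr11:16752203-16918158, all on the plus strand. Fgfr2 at chr7:130162451-133123350 and Axl at chr7:25757273-25788705 share a chromosome and the minus strand. Exons of Fgfr1, Pdgfra, Ddr1 and Ddr2 share 90 to 456 bases with an antisense gene that was not in the table, so their values are uncertain to the extent that reads were shared.

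**Figure D1:**
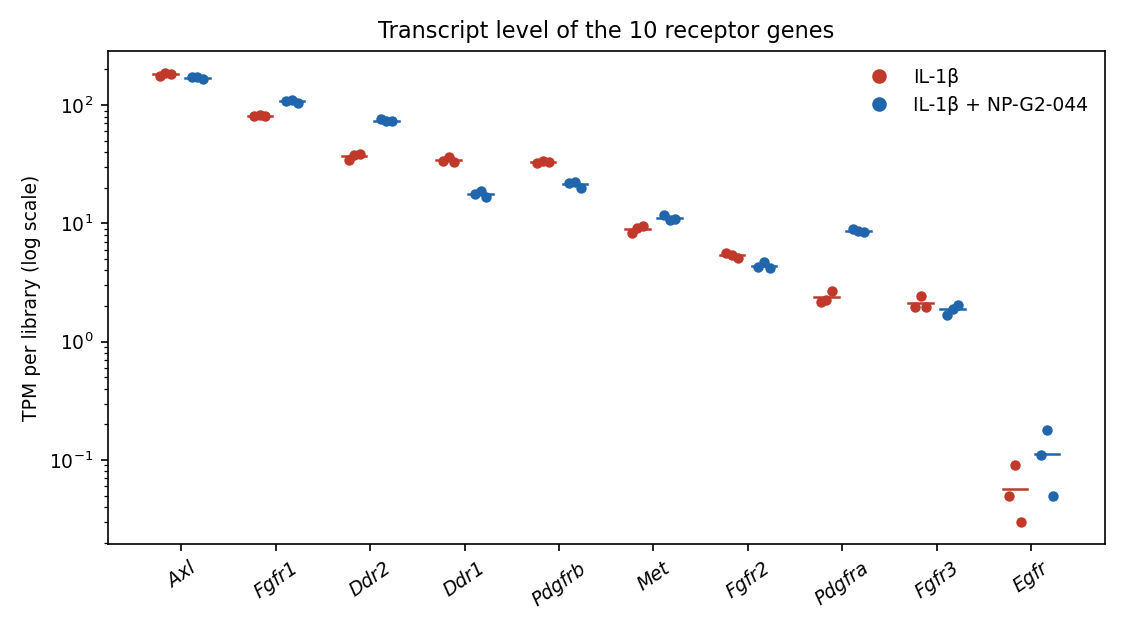
TPM of the 10 receptor genes in each library (log axis), with IL-1β alone and with IL-1β plus NP-G2-044, 3 libraries per group. Axl sits highest in both groups at 167.12 to 186.1 TPM, Pdgfra lies between 2.16 and 2.69 TPM without and between 8.49 and 9.03 TPM with the inhibitor, and Egfr stays at or below 0.18 TPM.

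Ddr1 and Ddr2 moved apart. Ddr2, which binds fibrillar collagen and marks mesenchymal cells, had 34.58, 37.67 and 38.42 TPM with IL-1β alone and 75.74, 73.14 and 73.29 TPM with the inhibitor. All inhibitor libraries lay above all others, a log2 fold change of 1.04 (SE 0.0303, edgeR adjusted p = 4.13e-35), or 2.05-fold. Ddr2 stood close to the cutoff of 1, with a log2 fold change of 0.997 without IL-1β replicate 1 and 0.987 on log2(TPM + 1) in limma. Ddr1, the relative that also binds collagen and is best known from epithelia, had 33.43, 36.17 and 33.29 TPM and then 17.77, 18.92 and 16.56 TPM. It was lower in each of the inhibitor libraries, at a log2 fold change of -0.92 (SE 0.0462, edgeR adjusted p = 1.25e-24), so it fell but was not past the cutoff. The ratio of Ddr2 to Ddr1 in TPM was 1.034, 1.041 and 1.154 with IL-1β alone and 4.262, 3.866 and 4.426 with the inhibitor, a 3.89-fold shift. An exact two-sided permutation test gave p = 0.1, the smallest that 3 against 3 libraries allow.

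The collagen chain genes in a list of ligands for these receptors fell together. That list leaves out Col5a3 and all type IV chains. The paper names Col2a1, Col4a1 and Col5a3 as significantly higher with the inhibitor, whereas Col2a1 fell here. Values of Col4a1 and Col5a3 are not reported here. Of 9 listed, 7 were tested and all 7 fell, against 39.8% of all tested genes. Of the 7, 6 were called lower (85.7%, against 10.1%), and the median log2 fold change was -1.83. This list and the gene lists below were chosen with earlier results of these data known. Their shares against all genes are therefore descriptions only. Col5a1, of type V collagen, fell from 67.9 ± 0.105 to 18.6 ± 1.12 TPM (SD, n = 3), which is -1.83 on the log2 scale. Col1a1 and Col3a1, of types I and III, fell with log2 fold changes of -2.80 and -2.31. Col2a1, of the type II collagen that defines cartilage, had 12, 10 and 10 reads and then 1, 3 and 2 reads, so its log2 fold change of -2.41 (SE 0.525) rests on few reads. Col2a1 passed the filter on low counts only through the libraries with IL-1β alone. Its direction is thus tied to the filter, although it counts among the 7 and the 6. Col1a2, the most abundant of them and named after its values were seen, fell from 1098 ± 27.0 to 331 ± 6.80 TPM at a log2 fold change of -1.70. Ddr2 rose while these collagen genes fell, and Ddr1 fell with them.

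The PDGF receptors also moved in opposite directions. Pdgfra, the receptor for PDGF-A and a mark of mesenchymal progenitors, had 144, 147 and 176 reads with IL-1β alone and 628, 614 and 601 with the inhibitor, which are 2.16, 2.24 and 2.69 TPM and 9.03, 8.54 and 8.49 TPM. Every inhibitor library was above every other library, with a log2 fold change of 1.91 (SE 0.0750, edgeR adjusted p = 2.49e-29), or 3.75-fold. Pdgfrb, which binds PDGF-B, had 32.57, 33.66 and 32.9 TPM and then 22.03, 22.35 and 20.02 TPM. The groups did not overlap, and it fell by 0.59 on the log2 scale (SE 0.0387, edgeR adjusted p = 8.01e-20). Pdgfrb stood above Pdgfra by 15.08-, 15.03- and 12.23-fold in TPM with IL-1β alone and by 2.44-, 2.617- and 2.358-fold with the inhibitor, an exact permutation p of 0.1. Pdgfra was the exception among the 10 tested fibroblast markers, of which the other 9 fell. Those 9 include Pdgfrb itself and Col1a1, Col1a2 and Col3a1, whose values are also given above.

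Of their ligands, Pdgfa rose and Pdgfb fell, the latter at a mean of 0.607 TPM with IL-1β alone and 0.137 TPM with the inhibitor. Pdgfa rose from 11.83, 12.53 and 13.3 TPM to 31.59, 30.98 and 32.71 TPM, with no overlap, at a log2 fold change of 1.41 (SE 0.0569, edgeR adjusted p = 9.22e-29). Pdgfb had 17, 26 and 18 reads and then 7, 4 and 2 reads, lower in all inhibitor libraries, at a log2 fold change of -2.27 (SE 0.389, edgeR adjusted p = 7.57e-07). Pdgfb passed the filter on low counts only through the libraries with IL-1β alone, so its direction is tied to the filter. Pdgfc, which after cleavage activates Pdgfra, rose by a log2 fold change of 0.33 (SE 0.0941), although the TPM ranges of the groups overlapped. Pdgfd was not analysed here.

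**Figure D2:**
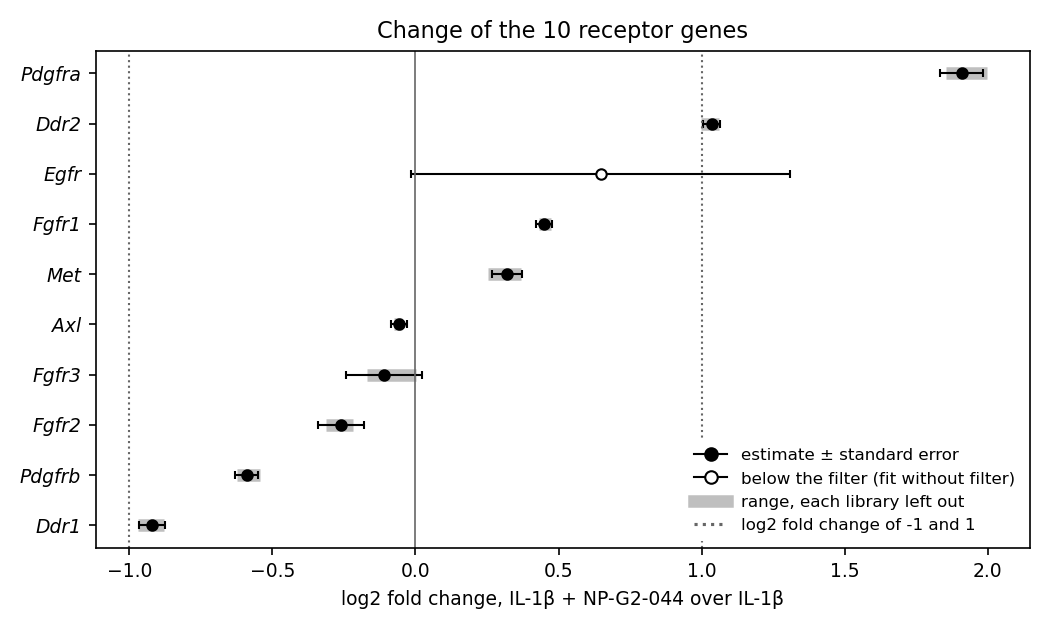
Log2 fold change of each receptor (inhibitor over no inhibitor) with its SE from edgeR as the error bar, the range over fits that each left out 1 library in grey, and dotted lines at -1 and 1. Pdgfra (1.91) and Ddr2 (1.04) lie beyond 1, Ddr1 at -0.92 and Pdgfrb at -0.59 lie lowest, and Egfr, an open symbol, comes from the fit without a filter.

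The FGF receptors changed less. Fgfr1, which is widely expressed in mesenchyme, had 80.34, 82.08 and 80.92 TPM with IL-1β alone and 108.69, 110.06 and 103.89 TPM with the inhibitor. It was higher in every inhibitor library, at a log2 fold change of 0.45 (SE 0.0289, edgeR adjusted p = 4.33e-20). Fgfr2, best known from epithelial and skeletal development, had 5.61, 5.39 and 5.07 TPM and then 4.31, 4.71 and 4.17 TPM. It fell by 0.26 on the log2 scale (SE 0.0809, edgeR adjusted p = 0.00323), and the groups did not overlap. Fgfr3, which restrains growth plate cartilage, had 80, 99 and 80 reads and then 75, 86 and 91 reads. The groups overlapped, its log2 fold change was -0.11 (SE 0.133, edgeR adjusted p = 0.443), and the ratio of pooled reads was 0.9245 with an exact 95% interval of 0.774 to 1.10 that covers counting error only. Without IL-1β replicate 2 its log2 fold change was 0.0024. The ratio of Fgfr1 to Fgfr2 in TPM was 15.2 ± 0.821 and 24.5 ± 0.992 (SD, n = 3), with an exact permutation p of 0.1. The exons of Fgfr2 share 314 bases with Ctbp2 on the same strand, those of Fgfr3 share 998 with an opposite gene, and whether reads were counted by strand is unknown here.

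Fgf7, the keratinocyte growth factor that signals through an epithelial form of Fgfr2, had 105.61, 114.3 and 119.05 TPM with IL-1β alone and 20.84, 24.78 and 20.53 TPM with the inhibitor. The groups lay far apart, at a log2 fold change of -2.32 (SE 0.0558, edgeR adjusted p = 2.01e-17). Fgf2 had 15, 12 and 13 reads and then 14, 24 and 25 reads and did not pass (edgeR adjusted p = 0.0654). Of the 14 tested co-receptor and sheddase genes, 4 rose and 9 fell, 1 was called higher and 4 were called lower. These are 28.6% rising, 64.3% falling, 7.14% called higher and 28.6% called lower, against 40.2%, 39.8%, 6.48% and 10.1% of all tested genes, so the share called higher was near that of all genes. The 4 were Nrp1, a co-receptor for VEGF and semaphorins (3.19 ± 0.189 to 0.347 ± 0.112 TPM), and the heparan sulfate proteoglycans Gpc4, Sdc4 and Sdc3, which present FGFs and fell with log2 fold changes of -1.97, -1.69 and -1.44. Gpc1, a proteoglycan of the same kind, rose by a log2 fold change of 1.37. Nrp2, a more abundant relative of Nrp1, rose from 47.4 ± 2.50 to 76.4 ± 3.06 TPM. Its log2 fold change was 0.73, and it was named after its values were seen. Adam10 and Adam17, proteases that release membrane ligands and receptors, fell with log2 fold changes of -0.84 and -0.59 and were named after their values were seen.

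Axl, which binds Gas6 and serves survival and cell clearance, was the most abundant of the receptors. It had 175.74, 186.1 and 182.9 TPM with IL-1β alone and 172.01, 172.54 and 167.12 TPM with the inhibitor. The TPM ranges did not overlap, but the difference was small, with a log2 fold change of -0.06 (SE 0.0274, edgeR adjusted p = 0.0487), and its adjusted p was above 0.05 in 7 of 14 alternatives. Without IL-1β replicates 2 or 3 it was 0.164 or 0.0768, and without inhibitor replicates 1, 2 or 3 it was 0.106, 0.0546 or 0.181. Gas6 had 0 reads in all 6 libraries, where 3 reads over a group would be 0.0597 and 0.0567 CPM (reads scaled to a common library total). Pros1, a ligand of the related Tyro3 and Mertk, had 13.13, 13.59 and 13.12 TPM and then 6.44, 7.22 and 6.02 TPM, and fell by 0.98 on the log2 scale (SE 0.0745, edgeR adjusted p = 2.35e-17). Tyro3 had a log2 fold change of -0.11 (edgeR adjusted p = 0.0146). The genes whose centred log2(TPM + 1) lay nearest to that of Axl over the 6 libraries were Trim32 (distance 0.0188), Ppp4r2 (0.0249) and Ipo5 (0.0263).

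Met, the receptor for hepatocyte growth factor, had 8.35, 9.17 and 9.53 TPM with IL-1β alone and 11.81, 10.69 and 10.97 TPM with the inhibitor. The inhibitor libraries were the higher 3, at a log2 fold change of 0.32 (SE 0.0522, edgeR adjusted p = 2.79e-07). Hgf, its ligand, had 0 reads in all 6 libraries, under the limit given for Gas6. Egfr had 3, 4 and 2 reads with IL-1β alone and 7, 6 and 2 with the inhibitor, at most 0.18 TPM, and was below the filter. The groups overlapped, the ratio of pooled reads was 1.58 (exact 95% interval 0.649 to 4.10), and the fit with no filter gave a log2 fold change of 0.65 (SE 0.661, edgeR adjusted p = 0.403), so a difference was not detectable at this depth. Its relative Erbb2, which has no ligand of its own, had 27.7 ± 1.06 and 20.1 ± 0.240 TPM (SD, n = 3) and fell by 0.43 on the log2 scale.

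Ligands of Egfr were expressed although Egfr was close to 0. Hbegf and Tgfa rose by log2 fold changes of 0.56 and 0.41, and Egf and Ereg by 0.47 and 0.59, all past the test in edgeR, although the TPM ranges of Egf overlapped. Btc, at 0.43, did not pass (edgeR adjusted p = 0.0737), and Areg, with 3, 2 and 1 reads and then 12, 8 and 15 reads, was below the filter. The fit with no filter gave Areg a log2 fold change of 2.41 (SE 0.580, edgeR adjusted p = 7.11e-05), from few reads. Epgn was below the filter too, with 1, 7 and 10 reads and then 6, 4 and 4 reads, and its groups overlapped. With no filter its log2 fold change was -0.42 (edgeR adjusted p = 0.523). Over the 11 tested ligand genes of 22 in the list, 6 rose (54.5%, against 40.2% of all tested genes), 3 fell (27.3%, against 39.8%) and 2 did not pass, with a median log2 fold change of 0.43.

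The order of the receptors changed between groups. With IL-1β alone it ran Axl, Fgfr1, Ddr2, Ddr1, Pdgfrb, Met, Fgfr2, Pdgfra, Fgfr3 and Egfr, and the ranges of Ddr2 and Ddr1, of Ddr1 and Pdgfrb, and of Pdgfra and Fgfr3 overlapped. With the inhibitor Pdgfrb stood above Ddr1 and Pdgfra above Fgfr2, and no neighbours overlapped. Of the 16880 genes, 4217 stood above Ddr2 with IL-1β alone and 2220 with the inhibitor, while for Ddr1 the numbers were 4463 and 6662. The summed TPM of the 10 was 385.8 ± 10.2 and then 417.6 ± 9.53 (SD, n = 3). Within that sum Axl went from 47.1% to 40.8% and Ddr1 from 8.89% to 4.25%, while Ddr2 went from 9.56% to 17.7%, Fgfr1 from 21.0% to 25.8% and Pdgfra from 0.612% to 2.08%. These shares are of one total, so a gain in some lowers the rest.

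**Figure D3:**
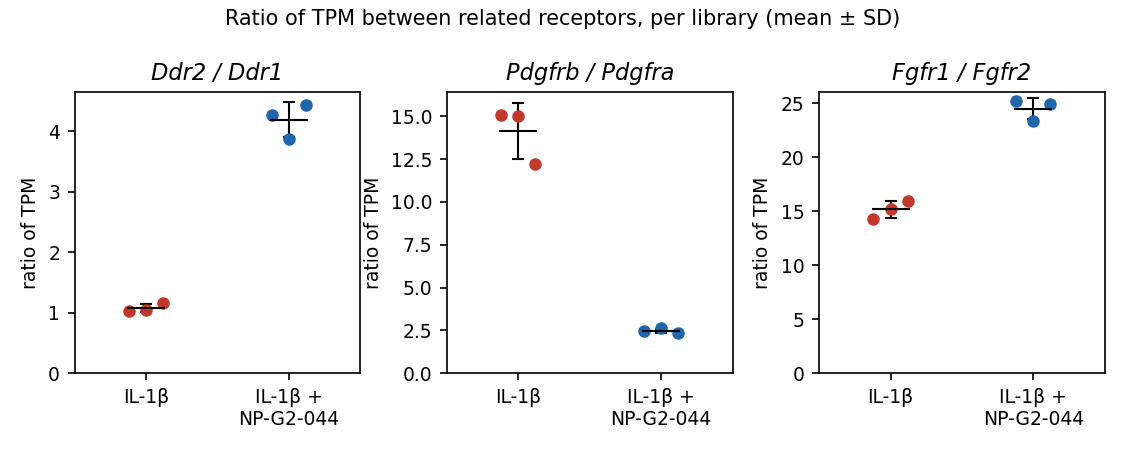
Ratios of TPM within each library for Ddr2 over Ddr1, Pdgfrb over Pdgfra and Fgfr1 over Fgfr2, with each library as a point and the mean and SD of 3 libraries. Ddr2 over Ddr1 goes from 1.08 to 4.19, Pdgfrb over Pdgfra from 14.1 to 2.47 and Fgfr1 over Fgfr2 from 15.2 to 24.5, and no pair of groups overlaps.

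Among 48 other receptor tyrosine kinases 39 were listed and 19 tested. Of the 19, 4 rose (21.1%, against 40.2% of all tested genes) and 13 fell (68.4%, against 39.8%). Called lower were 7 (36.8%, against 10.1%), and none was called higher, against 6.48% of all genes. The median log2 fold change of the 19 was -0.43, against -0.06 for the 9. The largest falls were Ephb6, an Eph receptor without kinase activity (11.0 ± 0.491 to 1.49 ± 0.136 TPM, log2 fold change -2.84), Styk1 (-2.31), Ror1, a Wnt5a receptor (-2.30), and Ephb2 (-2.14). Ror1 and Ephb2 averaged below 1 TPM in both groups. Of the 7 called lower, Ror1, Flt1 and Epha7 passed the filter on low counts only through the libraries with IL-1β alone. With no filter on low counts 3 of this list were called higher, Fgfr4, Mertk and Tek, each with at most 11 reads in a library and named after their values were seen.

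Downstream of the receptors, adaptors were mixed, while more inhibitors rose than fell. Of 19 adaptors 7 rose (36.8%, against 40.2% of all tested genes) and 10 fell (52.6%, against 39.8%), and the 5.26% called in each direction was below the 6.48% and 10.1% of all genes. The called genes were Gab2, a scaffold for PI3K and Ptpn11, called higher (1.76 ± 0.191 to 8.88 ± 0.350 TPM, log2 fold change 2.37) and Pik3r1, the p85α regulatory subunit of PI3K, called lower (160.5 ± 7.73 to 29.1 ± 0.561 TPM, -2.43). Grb2, which links receptors to Ras, had a log2 fold change of -0.05 (edgeR adjusted p = 0.126). Of 18 inhibitors 13 rose (72.2%, against 40.2% of all tested genes) and 3 fell (16.7%, against 39.8%). Called higher were 3 (16.7%, against 6.48%) and called lower was 1 (5.56%, against 10.1%). Dusp4, a phosphatase of ERK, went from 1.12, 1.96 and 1.7 TPM to 41.78, 39.42 and 39.16 TPM (log2 fold change 4.68, SE 0.0927). Spry4, a feedback inhibitor of Ras signalling, had 0 reads in each IL-1β library and 23, 14 and 15 reads with the inhibitor, at least 16.5-fold higher against a floor of 3 reads over the group. Spry4 passed the filter on low counts only through the inhibitor libraries, so its direction is tied to the filter. Spry1, of the same family, rose by a log2 fold change of 1.59. Lrig1, which promotes the turnover of Egfr and its relatives, fell from 62.0 ± 1.76 to 14.7 ± 0.978 TPM, a log2 fold change of -2.04.

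Genes that respond to ERK were mixed as well, with 6 of 10 rising and 3 falling, against 40.2% and 39.8% of all tested genes, and a median log2 fold change of 0.23. In each direction 1 of the 10 was called, against 6.48% called higher and 10.1% called lower over all genes. Etv5 rose from 1.65 ± 0.143 to 13.8 ± 0.950 TPM (log2 fold change 3.10, SE 0.0940), while its relative Etv1 fell by 1.82 on the log2 scale from 50, 52 and 54 reads to 18, 13 and 15 reads. No protein or phosphorylation was measured, so these are RNA levels only.

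**Figure D4:**
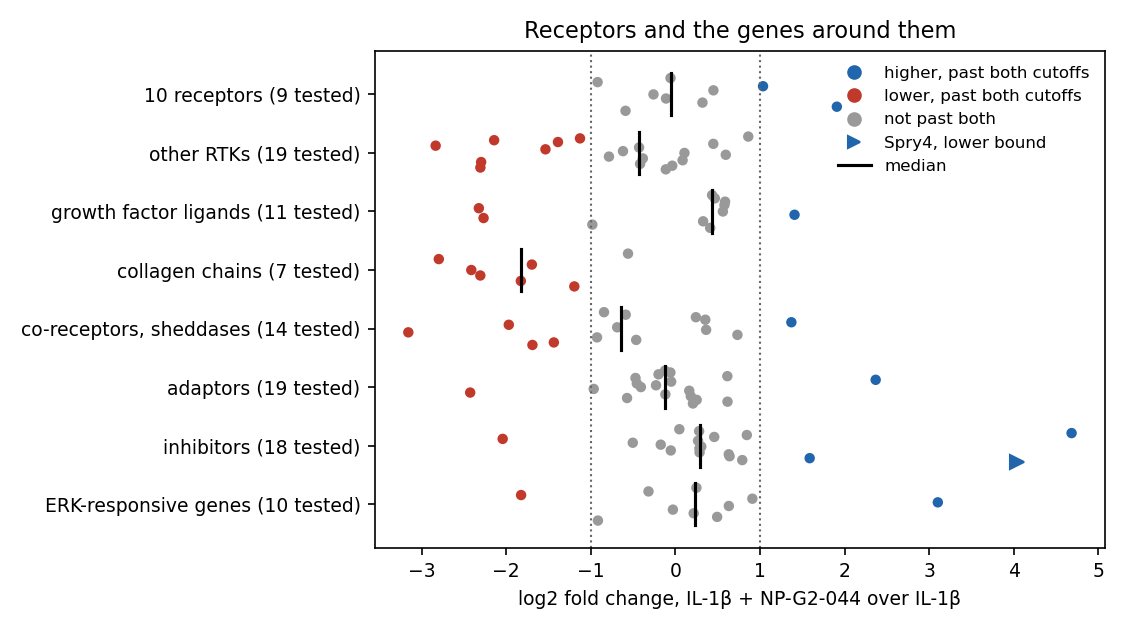
Log2 fold change of every tested gene in the receptor list and 7 lists of genes around it, with the median as a black line, blue for called higher, red for called lower and grey for the rest. The listed collagen chains have the lowest median (-1.83), and Spry4 is drawn at its lower bound of 4.04 because it had 0 reads with IL-1β alone.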

How the data were processed

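RNA of 6 libraries was compared, 3 with IL-1β and 3 with IL-1β plus NP-G2-044, grouped by the labels. BGI prepared and quantified the libraries with a TruSeq kit. The submitters' processing notes name HISAT2 2.0, StringTie, cutadapt and mm10, with no role or order given, and the strand setting is not known. The deposited expected counts, estimated per gene by the authors, are not normalized, and 10.17% to 11.06% were not whole. The deposited TPM values are the authors' own per library. FPKM, which the authors computed per library, and the mean columns were left out.

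Counts were rounded, filtered with filterByExpr (minimum 10), TMM normalized and compared in edgeR 4.0.16 (R 4.3.3) by its quasi-likelihood test, adjusted by Benjamini-Hochberg over 11983 genes. SE is the log2 fold change over the square root of F. The study's cutoffs were kept, namely 0.05 for the adjusted p and 1 for the size of the log2 fold change. Alternatives used DESeq2 1.42.0, limma 3.58.1, other scalings and filters, a replicate block and each library left out. In simulated counts for this comparison, 200 of 200 changed genes among 11915 tested were recovered with 0 false calls. In the libraries themselves 80.0% of the 11983 genes passed the test, and recovery with so many genes changed was not tested. Recovery by size of change, such as near the cutoff of 1, is not reported here. The receptors and gene lists were chosen with earlier results of these data known. Named genes are all 10 receptors, up to 4 called genes of each list with the largest change and no overlap (up to 8 for ligands), the leading markers and the 3 genes nearest to Axl. Other genes are examples named after their values were seen. For 1 leukocyte marker no value is reported here. Positions follow GENCODE vM21 on mm10.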

Additional observations from a re-analysis of the deposited data

How the results depend on the processing

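The receptors kept their direction in every alternative run, apart from Fgfr3, whose log2 fold change was 0.0024 without IL-1β replicate 2 and ranged from -0.17 to 0.0024 with each library left out, and the test passed or failed as in the main fit apart from Axl. For Axl the adjusted p was 0.0768 with no filter and 0.0809 with the replicate block, was also above 0.05 without each library but IL-1β replicate 1, and ranged from 0.00431 to 0.181 over 14 alternatives. Same-numbered libraries did not deviate together (correlations -0.0933, -0.0236 and 0.0259), so the numbers were not taken to pair the samples, and the replicate block gave 775 genes called higher and 1209 lower against 776 and 1211. With limma on log2(TPM + 1), 514 genes were called higher and 802 lower, 1 receptor was called higher, 3 other receptor kinases and 1 ligand were called lower, 1 inhibitor was called higher and 0 ERK-responsive genes were called lower. With a filter of 10 CPM in 3 libraries, 484 and 680 genes were called, 2 other receptor kinases were called lower, 1 inhibitor higher and 0 ERK-responsive genes lower, because fewer genes were tested. With no filter, 3 other receptor kinases and 2 ligands, Pdgfa and Areg, were called higher. With each library left out, 785 to 822 genes were called higher and 1216 to 1276 lower, 1 to 2 receptors higher, 0 to 1 other receptor kinases and 1 to 2 ligands higher, 2 to 3 ligands lower, 1 to 2 adaptors lower and 1 to 2 ERK-responsive genes higher. The causes of the other differences were not tested. The low counts of Egfr limit what this depth can show.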

Other observations

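The effective length of each receptor implied by its deposited count and TPM, relative to the median gene of the library, was nearly equal in the groups, at 0.991 (Met) to 1.02 (Fgfr3) with the inhibitor over IL-1β alone. The range that holds the middle 90% of genes was 0.971 to 1.024 over 10153 genes. Of the 9 tested receptors, Met had the widest range, at 2.251, 2.343 and 2.358 with IL-1β alone and 2.174, 2.365 and 2.349 with the inhibitor.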
